A study of Homo sapiens with 9 samples.

Results

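The costimulatory and checkpoint ligands described here are 10 surface or secreted molecules through which an antigen-presenting cell, such as a B cell, instructs T cells and NK cells. They were taken as the rows of the count table that carry the symbols CD80, CD86, CD83, CD274, PDCD1LG2, ICOSLG, SLAMF1, SLAMF7, CD200 and LGALS9. All 10 were found among 60656 genes. Their mRNA was measured by RNA-seq in RIVA, an established human lymphoma line of the ABC-DLBCL class (diffuse large B-cell lymphoma resembling activated B cells). The cells carried a doxycycline-inducible lentiviral construct with no insert (vector), with BCL10 S136X, a truncation, or with BCL10 R58Q, a missense change in the CARD domain. BCL10 is an adaptor protein that acts upstream of NF-kB. Every group, vector included, was exposed to doxycycline for 24 h, at 200 ng/ml by the protocol in the labels (their characteristics give the dose per µL instead), so no group shows uninduced cells. The line keeps its own BCL10 gene, and a group without BCL10 expression or with wild-type BCL10 was not analysed here.

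Each group had 3 libraries, numbered 1 to 3, with 28047713 to 33122267 counts per library. BCL10 counts, endogenous and construct together, were at most 1268 in vector libraries and at least 9838 in the 6 mutant libraries, in the direction the labels give. The column names of the count table date every vector and S136X library alike and every R58Q library later, so date and R58Q construct cannot be told apart in any R58Q value below. The B-cell markers MS4A1, CD79A, CD79B, PAX5, CD22 and BLK were abundant, each with at least 2830 counts in every library. Mean CPM of MS4A1 was 618 in vector, 546 in S136X and 476 in R58Q libraries, and that of PAX5 was 1016, 1145 and 1076. CR2 had at most 4 counts. T-cell and NK-cell markers summed to 3.17 to 7.42 CPM, mostly CD8A, with CD8B and KLRD1 at 0, and monocyte and macrophage markers to 0.273 to 0.674 CPM, with FCGR3A, MARCO and C1QA at 0 in all 9 libraries.

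T cells need a second signal beside the antigen receptor. CD80 and CD86 supply it by binding CD28, and the same ligands engage the inhibitory receptor CTLA4, which CD80 binds more tightly than it binds CD28. CD274 (PD-L1) and PDCD1LG2 (PD-L2) bind PD-1 and restrain T cells, ICOSLG binds ICOS, and CD200 and LGALS9 (galectin-9) signal through inhibitory receptors. SLAMF1 and SLAMF7 are self-binding receptors of the SLAM family, and CD83 is a surface marker of activated B cells and mature dendritic cells. Several of these genes are known to be induced in B cells when CD40 or the B-cell receptor activates NF-kB, while CD274 is best known for its induction by interferons.

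Levels are given as CPM, that is counts per library size after TMM scaling, and were compared between genes only after division by gene length. Per kilobase, CD83 was the most abundant ligand mRNA in every group, at 109 ± 2.56 CPM per kb in vector (SD, n = 3), 173 ± 16.3 in S136X and 214 ± 13.3 in R58Q. CD86, SLAMF7, CD80, CD274 and LGALS9 followed in that order in all 3 groups. In vector libraries SLAMF7, CD80 and CD274 formed a low tier, at means of 2.57, 1.49 and 0.898 CPM per kb, in which neighbours overlapped. In both mutants SLAMF7 and CD80 were separated from each other and from CD274, with no overlap of libraries, whereas CD274 and LGALS9 overlapped. CD200, SLAMF1, PDCD1LG2 and ICOSLG were lowest, with group means of at most 0.0615 CPM per kb and a changing order.

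**Figure D1:**
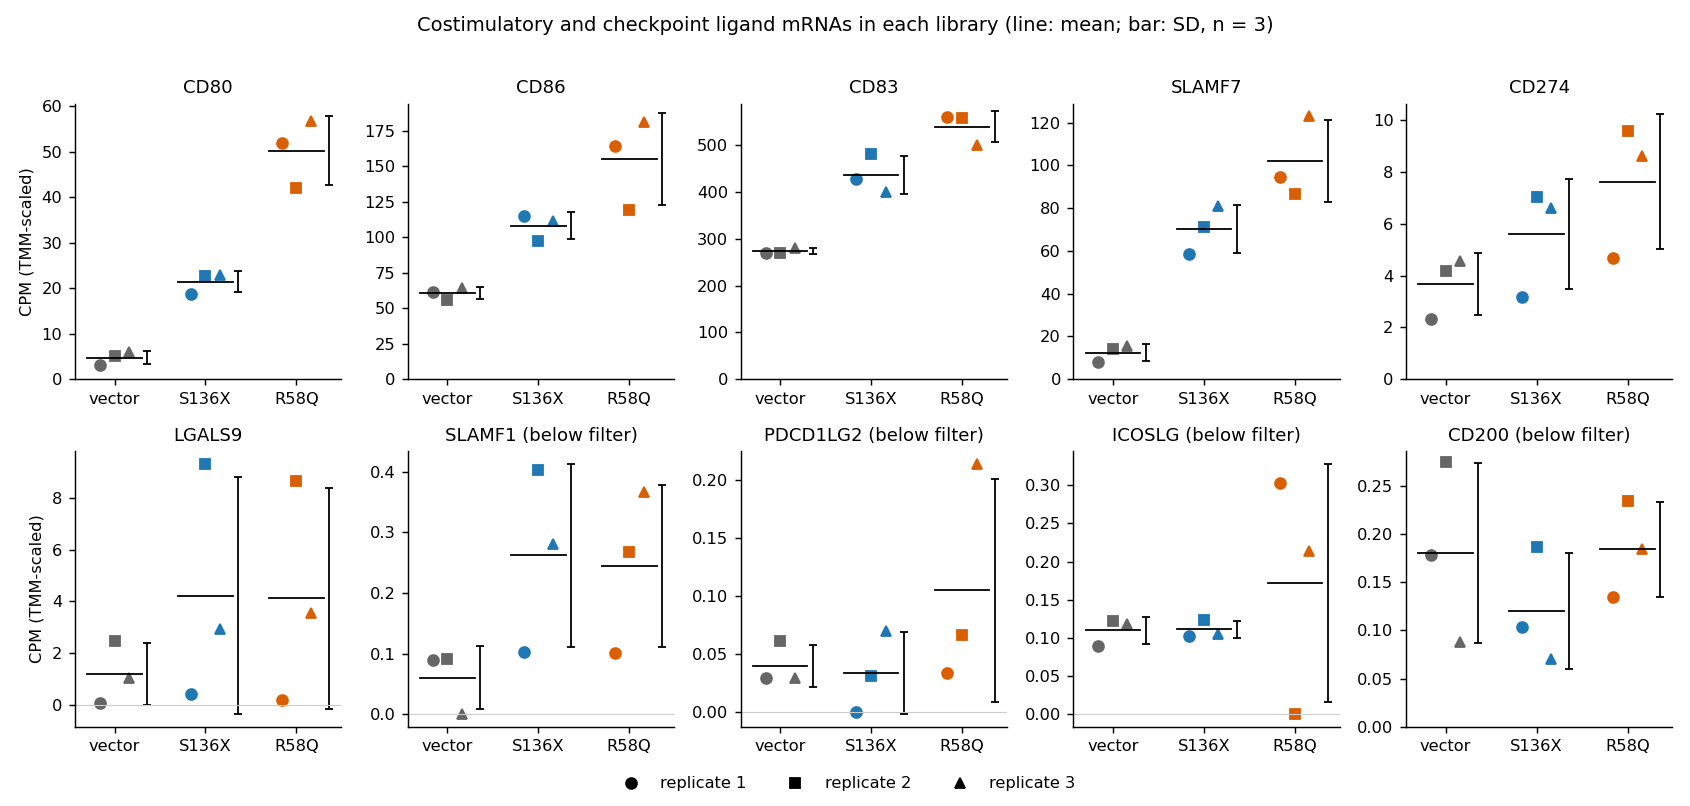
Level of each of the 10 ligand mRNAs in CPM (linear axis, own scale per panel) for vector, S136X and R58Q. Symbols are single libraries by replicate number, the line is the mean and the bar the SD (n = 3). CD80, CD86, CD83 and SLAMF7 are higher in all 6 mutant libraries than in any vector library, the CD274 and LGALS9 panels spread by replicate number, and the 4 genes below the count filter stay under 0.5 CPM.

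Of the 10 genes, 6 passed the filter on low counts in each comparison. Called means a change of at least 1.5-fold with a Benjamini-Hochberg adjusted p under 0.05 in edgeR's quasi-likelihood test. In S136X cells 4 of the 6 were called, CD80, CD86, CD83 and SLAMF7, all higher than in vector, against 3.87% of all 15530 genes tested (2.05% called higher). In R58Q cells 5 of the 6 were called, the same 4 and CD274, all higher, against 7.63% of 15435 genes (4.09% higher). The median log2 fold change of the 6 was 1.33 for S136X and 1.57 for R58Q, beside -0.0196 and -0.0283 over all genes tested. Both comparisons share the vector libraries. As RIVA was sequenced in bulk, more cells with the transcript and more transcript per cell cannot be told apart. With the replicate number as a block (libraries of the same number deviated together, least clearly vector replicate 2), all 6 were called in both mutants, against 6.53% and 10.7% of genes.

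CD80 (chromosome 3, 119524293 to 119559614 on GRCh38, as for all positions of genes here) rose most of the 6 against vector in R58Q cells. Its counts were 105, 168 and 205 in vector, 547, 728 and 652 in S136X and 1540, 1255 and 1854 in R58Q libraries (replicates 1 to 3). The 3 groups did not overlap, and the lowest R58Q library held more than the highest S136X library. Means were 4.76 ± 1.49, 21.4 ± 2.33 and 50.2 ± 7.54 CPM (SD, n = 3). The rise over vector was 4.49-fold in S136X cells (log2 2.17, SE 0.214, adjusted p = 0.000858) and 10.5-fold in R58Q cells (log2 3.39, SE 0.219, adjusted p = 6.21e-05). The gene end of CD80 overlaps the neighbouring TIMMDC1 by 798 bases, and 28.5% of the 31-base words of its longest transcript are shared with it. TIMMDC1 held 1397 to 1655 counts in all 9 libraries, with log2 fold changes of 0.15 in S136X (adjusted p = 0.157) and 0.08 in R58Q cells (adjusted p = 0.51).

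CD86 (chromosome 3, 122055362 to 122121139), the other CD28 ligand, started from a higher level and rose less. Vector libraries held 2064, 1826 and 2175 counts, S136X libraries 3374, 3143 and 3177, and R58Q libraries 4859, 3561 and 5933. Every mutant library was above every vector library, and R58Q replicate 2 lay nearest to the S136X libraries. In CPM the means were 60.4 ± 4.18, 108 ± 9.39 and 155 ± 32.2 (SD, n = 3). S136X cells were at 1.79-fold the vector level (log2 0.84, SE 0.0823, adjusted p = 0.000829) and R58Q cells at 2.56-fold (log2 1.36, SE 0.143, adjusted p = 0.000755).

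Per kilobase, the ratio of CD80 to CD86 mRNA therefore shifted. It was 0.0546, 0.0987 and 0.101 in vector, 0.174, 0.248 and 0.22 in S136X and 0.34, 0.378 and 0.335 in R58Q libraries. No value of one group fell in the range of another. Each of the 3 pairs of groups gave p = 0.1 in a two-sided exact permutation test, the smallest that 3 against 3 libraries allow.

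CD83 (chromosome 6, 14117256 to 14136918) was already abundant in vector, at 9075, 8830 and 9539 counts. It reached 12484, 15507 and 11412 counts in S136X and 16603, 16674 and 16361 in R58Q libraries. The replicates lay close together, with the highest vector library only 1.04-fold above the lowest in CPM. Levels were 273 ± 6.44, 436 ± 41 and 539 ± 33.4 CPM (SD, n = 3), a rise of 1.59-fold in S136X (log2 0.67, SE 0.0761, adjusted p = 0.00159) and 1.97-fold in R58Q cells (log2 0.98, SE 0.066, adjusted p = 8.11e-05). At a threshold of 2-fold in place of 1.5-fold, CD83 was no longer called in either mutant and CD86 no longer in S136X cells.

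SLAMF7 is the target of the antibody elotuzumab and is known from plasma cells and NK cells. Counts of SLAMF7 (chromosome 1, 160739057 to 160754821) were 271, 456 and 521 in vector, 1711, 2294 and 2309 in S136X and 2808, 2597 and 4027 in R58Q libraries. Again all 6 mutant libraries exceeded the vector libraries, and the R58Q libraries lay above the S136X ones. Its level went from 12.4 ± 3.87 CPM to 70.2 ± 11.3 and 102 ± 19.2 CPM (SD, n = 3). This was 5.64-fold in S136X cells (log2 2.50, SE 0.22, adjusted p = 0.000478), the largest change of the 6 tested ligands there, and 8.15-fold in R58Q cells (log2 3.03, SE 0.231, adjusted p = 0.000139). The calls of CD80, CD86, CD83 and SLAMF7 against vector held in all 6 fits that left out 1 library in either comparison. Libraries of different groups do not overlap in 31.3% of all genes for S136X and 40.3% for R58Q against vector, and in 17% between the mutants, so absence of overlap alone was common.

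**Figure D2:**
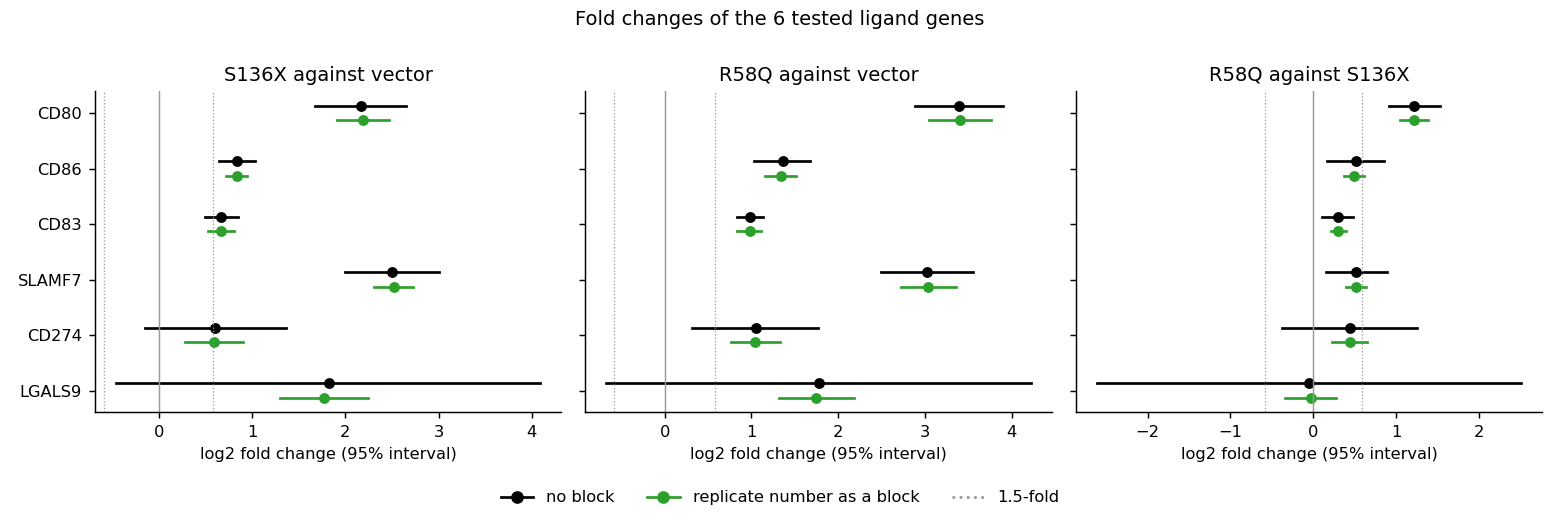
Log2 fold change with its 95% interval for the 6 ligand genes that passed the filter, in the 3 comparisons, from edgeR without (black) and with (green) the replicate number as a block. The dotted line marks 1.5-fold. CD80 and SLAMF7 lie furthest to the right against vector, the block narrows the intervals of CD274 and LGALS9 most, and between the mutants CD80 alone lies wholly beyond 1.5-fold.

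CD274 encodes PD-L1 and lies on chromosome 9, from 5450503 to 5470566. Vector libraries 1 to 3 held 78, 137 and 155 counts, S136X libraries 93, 227 and 188 and R58Q libraries 139, 287 and 282. Replicate 1 was lowest in each group, so that S136X overlapped vector, while in CPM the R58Q libraries lay above all vector libraries by a narrow margin. Means were 3.69 ± 1.2, 5.6 ± 2.11 and 7.63 ± 2.6 CPM (SD, n = 3). For S136X the log2 fold change was 0.60 (SE 0.333, adjusted p = 0.285), and with the block 0.59 (SE 0.14, adjusted p = 0.0134), which was called. For R58Q it was 1.05 (SE 0.317, adjusted p = 0.0483), a 2.07-fold rise at the edge of the threshold, and with the block 1.04 (SE 0.126, adjusted p = 0.000351).

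Within replicate numbers, CD274 differed from vector by 0.45, 0.74 and 0.53 in S136X and by 1.0, 1.18 and 0.91 in R58Q libraries on the log2 CPM scale. It was higher in all 3 pairs for both mutants, by a narrower range than the libraries themselves spanned. Without the block 5 of the 6 fits with 1 library removed lost the R58Q call (any vector library, R58Q replicate 2 or R58Q replicate 3, log2 fold changes 0.82 to 1.23, adjusted p up to 0.131). Leaving out replicate 1 of every group, a choice made after its low values were seen, gave adjusted p values of 0.036 for S136X and 0.00394 for R58Q. As CD80 rose more, the ratio of CD274 to CD80 per kilobase was 0.601 ± 0.0301 in vector, 0.2 ± 0.0592 in S136X and 0.122 ± 0.054 in R58Q libraries (SD, n = 3). Exact two-sided permutation tests gave p = 0.1 for each mutant against vector, the smallest possible, and p = 0.2 between the mutants.

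LGALS9 (chromosome 17, 27629798 to 27649560) varied mainly with the replicate number. Its counts were 3, 81 and 36 in vector, 13, 300 and 84 in S136X and 6, 259 and 116 in R58Q libraries, or 1.21 ± 1.2, 4.23 ± 4.57 and 4.13 ± 4.26 CPM (SD, n = 3). Replicate 1 was lowest and replicate 2 highest in every group, and the highest library exceeded the lowest by 27.8-fold in vector, 20.9-fold in S136X and 42.8-fold in R58Q in CPM. The groups overlapped, and without the block the log2 fold changes of 1.82 for S136X (SE 1) and 1.78 for R58Q (SE 1.07) were not called (adjusted p = 0.285 and 0.269). Compared within replicate numbers, S136X was higher by 1.73, 1.88 and 1.42 and R58Q by 0.80, 1.78 and 1.69 (log2 CPM). The fit with the block called both, at 1.77 for S136X (SE 0.209, adjusted p = 0.000323) and 1.75 for R58Q (SE 0.19, adjusted p = 0.0002). Of the 31-base words of LGALS9, 27.6% also occur in other genes, mostly its near copies LGALS9C and LGALS9B, which held 0 counts in all 9 libraries, so how reads were divided among the copies is uncertain.

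The division of each gene's variation shows the same contrast. Of the sum of squares of log2 CPM over the 9 libraries, the group accounted for 96.6% in CD80, 91.5% in CD86, 96.5% in CD83 and 95.5% in SLAMF7. In CD274 it accounted for 45.1% and the replicate number for 54%, and in LGALS9 for 13.5% and 85.2%. Over all 15860 genes that passed the filter, the medians were 43.4% for the group and 25.8% for the number, and the number outweighed the group and the remainder together in 22.4% of genes. What differed between the replicate numbers is not stated in the labels and was not tested.

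**Figure D3:**
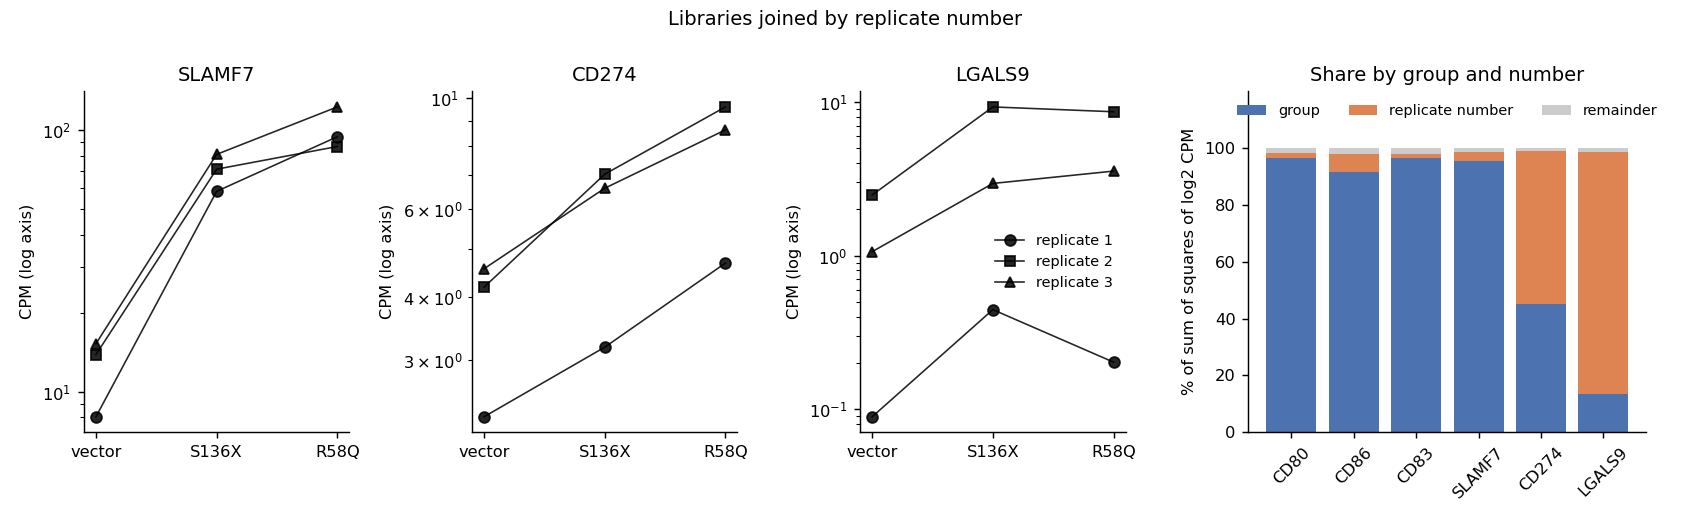
The first 3 panels show SLAMF7, CD274 and LGALS9 in CPM (log axis), with libraries of the same replicate number joined, and the fourth the share (%) of the sum of squares of log2 CPM that goes with the group, the replicate number and the remainder. The lines of SLAMF7 run together, those of CD274 run in parallel with replicate 1 lowest, and the number accounts for 85.2% of LGALS9.

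The direct comparison of the mutants asked whether any ligand differed between them. CD80 alone was called, 2.33-fold higher in R58Q cells (log2 1.22, SE 0.132, 95% interval 0.92 to 1.53, adjusted p = 0.0138), against 0.434% of 15195 genes (0.27% higher). R58Q was above S136X in all 3 same-number pairs, by 1.47, 0.89 and 1.31. The call was lost without R58Q replicate 3 (adjusted p = 0.0638), S136X replicate 2 (0.0569) or S136X replicate 3 (0.122), at log2 fold changes of 1.12 to 1.28, and with the block the adjusted p was 2.73e-09. The intervals of the log2 difference were 0.17 to 0.85 for CD86, 0.11 to 0.48 for CD83 and 0.15 to 0.89 for SLAMF7, with adjusted p values of 0.224, 0.188 and 0.252. These 3 genes were higher in R58Q in all 3 pairs. Without R58Q replicate 2, CD86 was also called (log2 0.67, adjusted p = 0.0381). For CD274 the interval ran from -0.38 to 1.25 without the block and from 0.23 to 0.65 with it (adjusted p = 0.0053), and R58Q was higher in all 3 pairs, by 0.55, 0.44 and 0.38. For LGALS9 it ran from -2.61 to 2.51 without the block and from -0.34 to 0.28 with it, which includes differences in either direction. With the block, 5 of the 6 genes had an adjusted p under 0.05, as had 14.6% of all genes, and CD80 was again the 1 called, against 2.94% of genes. The median log2 difference of the 6 was 0.47, beside 0.00279 over all genes tested.

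The remaining 4 ligands were near the limit of detection and were removed by the filter. SLAMF1, the self-binding receptor that also serves as a measles virus receptor, had 3, 3 and 0 counts in vector, 3, 13 and 8 in S136X and 3, 8 and 12 in R58Q libraries. The summed counts gave a ratio to vector of 4.3 for S136X (95% interval 1.71 to 12.9) and 4 for R58Q (1.58 to 12), intervals that cover counting error only. Replicate 1 held 3 counts in every group, and in the fit without a filter the adjusted p was 0.0892 and 0.0819. PDCD1LG2, the second PD-1 ligand and a neighbour of CD274 on chromosome 9, had 1, 2 and 1, then 0, 1 and 2, then 1, 2 and 7 counts. ICOSLG had 3, 4 and 4, then 3, 4 and 3, then 9, 0 and 7 counts, and 51.2% of its 31-base words occur in other genes, mostly FP565260.3. CD200 had 6, 9 and 3, then 3, 6 and 2, then 4, 7 and 6 counts (vector, S136X, R58Q). The ratio of R58Q to vector was 2.61 for PDCD1LG2 (95% interval 0.753 to 11.4), 1.52 for ICOSLG (0.662 to 3.62) and 0.986 for CD200 (0.477 to 2.03), and for S136X the intervals also included 1, so that no change of these 3 genes was detectable at this depth.

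Promoter sequence was read from RefSeq (GRCh38.p14, 250 bases before each annotated start) for 8 of the 10 genes, in 10 windows. No entry was found for SLAMF7 and PDCD1LG2. Searched on both strands were the kappaB consensus of NF-kB, the gamma-activated site TTCNNNGAA of STAT factors, the interferon regulatory factor (IRF) motif (GAAA, any pair of bases, GAAA) and the AP-1 motif TGANTCA. The kappaB consensus matched in CD86 and CD83, in each only before the second annotated start, and in 5.21% of 35116 promoters, a share per window. The matched CD83 window was 83.2% G and C. CD274 held 2 overlapping IRF matches (3.02% of promoters) and 1 gamma-activated site (6.57%), and 0 of the 8 genes held the AP-1 motif (6.57%). Shown are the 3 stretches with matches, 5′ to 3′ on the plus strand, with the matched bases in capitals.
CD86, before its second annotated start, chr3:122077534-122077783: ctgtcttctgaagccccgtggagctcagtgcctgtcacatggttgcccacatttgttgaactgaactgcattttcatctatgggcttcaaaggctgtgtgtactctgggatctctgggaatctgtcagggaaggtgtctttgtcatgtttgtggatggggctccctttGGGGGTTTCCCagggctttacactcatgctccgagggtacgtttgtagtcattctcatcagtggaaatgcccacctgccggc
CD83, 30 bases around the match before its second annotated start, chr6:14117687-14117716: ctgcccgccGGGGAATCCCCCgggctggcg
CD274, up to the gene start, chr9:5450292-5450502: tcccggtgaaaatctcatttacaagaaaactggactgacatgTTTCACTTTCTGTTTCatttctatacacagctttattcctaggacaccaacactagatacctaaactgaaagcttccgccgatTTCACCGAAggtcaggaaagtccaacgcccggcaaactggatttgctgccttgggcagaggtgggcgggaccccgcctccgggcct
In CD86 and CD83 the capitals are 2 and 3 overlapping kappaB matches. In CD274 the first run of capitals is the IRF pair and the second the gamma-activated site. CD80 held none of the 4 motifs in this window, which says nothing of sites elsewhere. Whether any matched site acts in RIVA cells was not tested.

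Genes whose pattern over the 9 libraries lay nearest to a ligand were found by the root-mean-square (RMS) difference of log2 CPM after each gene's mean was subtracted. For CD80 they were TNF (0.259), SLAMF7 (0.295) and SGK1 (0.307), against an RMS of 1.44 of CD80 about its own mean. For CD83, with an RMS of 0.416, they were CLIP2 (0.0709), ZSWIM4 (0.0905) and PMAIP1 (0.0941). CD274, with an RMS of 0.627, was nearest to the immunoproteasome subunit gene PSMB9 (0.125), the interferon-inducible TRIM22 (0.141) and RASGRP3 (0.172). For LGALS9, added after its values were seen, the nearest were LY6E (0.642), RGS13 (0.734) and LMCD1 (0.778), further off in absolute terms, beside an RMS of 2.01. SLAMF1 was below the filter. All libraries enter each value, so that differences between groups and between replicate numbers both count.

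Other genes of the costimulatory system were counted in 6 lists that hold 54 genes of the table besides the 10 ligands. Of 36 tested in S136X against vector, 5 were called higher and 0 lower, beside 3.87% of all genes called in either direction. In R58Q cells 9 of 37 were called higher and 1 lower, beside 7.63% of all genes. The 9 include HHLA2, which passed the filter only through its R58Q libraries. With the block 8 were called in S136X cells, beside 6.53% of all genes, and 11 in R58Q cells, beside 10.7%.

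Among ligands of T-cell and NK-cell receptors, 3 of 7 tested genes rose in S136X and 5 of 7 in R58Q cells, at a list median of 0.69 and 1.33 (log2). CD58, which binds CD2 on T cells and NK cells, went from 7.76 ± 1.41 CPM in vector to 38.3 ± 0.691 in S136X and 54.1 ± 8.54 in R58Q (SD, n = 3), log2 fold changes of 2.30 (adjusted p = 5.15e-05) and 2.80 (4.56e-05). LGALS3 (galectin-3) rose by 1.25 and 1.40, and HLA-E, the ligand of NKG2A, by 0.69 and 1.33. TNFRSF14, the ligand of BTLA, and HLA-G rose in R58Q cells, by 0.75 and 1.71, and in S136X cells stood at 0.25 (adjusted p = 0.507) and 1.12 (adjusted p = 0.0612, with the block called at 0.00982). HLA genes share sequence, so their counts are uncertain where reads were split. The call of TNFRSF14 held in 2 and that of HLA-G in 5 of the 6 fits without 1 library, and that of HLA-E in S136X cells in 3 of 6.

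Among TNF-family costimulators, 2 of 5 tested genes rose in S136X and 3 of 5 in R58Q cells, at medians of 0.57 and 1.13. CD40, the receptor through which helper T cells activate B cells, was at 146 ± 8.46, 284 ± 7.74 and 500 ± 44.5 CPM (SD, n = 3), with log2 fold changes of 0.96 (adjusted p = 0.000127) and 1.77 (1.96e-05). It was also the single gene called between the mutants, 0.81 higher in R58Q cells (adjusted p = 0.00634). This was 1 of 35 tested from the 6 lists, beside 0.434% of all genes. The call of CD40 was lost in 1 of the 6 fits without 1 library, the one without S136X replicate 3. With the block 3 genes of the lists were called between the mutants, beside 2.94% of all genes. They were CD40, HLA-E (log2 0.64 higher in R58Q, adjusted p = 5.96e-09, against 0.13 without the block) and HHLA2 (2.15, adjusted p = 0.000845, against 0.0918). CD70, the ligand of CD27, rose by 0.82 in S136X cells (called in 2 of the 6 fits without 1 library) and by 1.38 in R58Q cells. TNFSF9, the ligand of 4-1BB, rose by 1.13 in R58Q cells and stood at 0.56 in S136X cells (adjusted p = 0.0064), under 1.5-fold.

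Of the other B7 and butyrophilin genes, 2 of 10 tested were called in R58Q cells. In S136X cells edgeR called 0 of 9 tested, as did DESeq2 (1 had an unadjusted p under 0.05), and in R58Q cells HHLA2 rose by 2.32 (from 0.158 to 0.807 CPM) and BTN1A1 fell by 0.74 on the log2 scale. BTN1A1 was called in 4 of the 6 fits without 1 library. HHLA2 was not tested in S136X against vector. It passed the filter only through its R58Q libraries, so the filter itself favoured a rise there. Against vector edgeR called 0 genes of 3 further lists: other SLAM family genes and adaptors (4 tested), receptors of the ligands (4 tested) and regulators of ligand protein at the cell surface such as CMTM6 (7 tested). An unadjusted p under 0.05 was reached there by 1, 1 and 2 genes in S136X and by 1, 1 and 3 in R58Q cells, in that order, and DESeq2 called 1 receptor gene, in S136X cells. With the block, CD48, the SLAM family ligand of CD244 (2B4), was called in both mutants (log2 fold changes 1.11 and 1.32, adjusted p = 3.86e-05 and 2.48e-05, against 0.118 and 0.059 without it). CD28, the receptor of CD80 and CD86, was lower with the block in S136X cells (-1.49, adjusted p = 0.00757, against 0.0682 without it). Its counts were low, 52, 21 and 29 in vector and 16, 10 and 6 in S136X libraries. In R58Q cells the block called 0 of the 4 receptor genes tested. CD48 and CD28 were named after their values were seen.

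**Figure D4:**
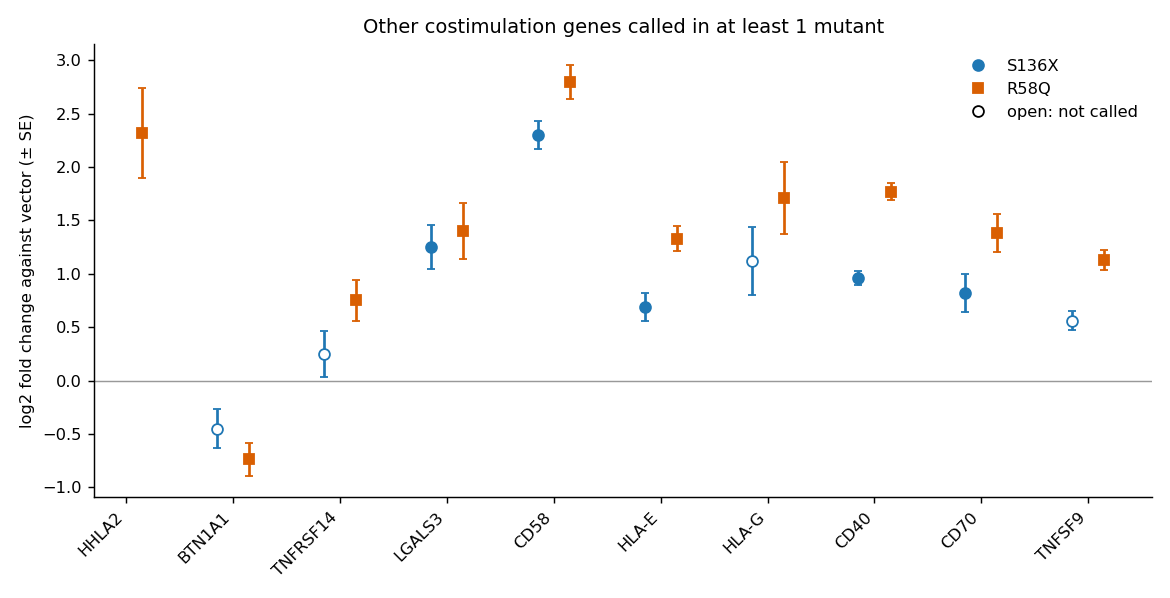
Log2 fold change against vector (± SE) of the 10 genes from the 6 lists that were called in at least 1 mutant, in list order, with filled symbols for called and open symbols for not called. HHLA2 has no S136X value because it was not tested there. CD58 lies highest in both mutants, at 2.30 and 2.80, and BTN1A1 lies below 0.

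Of the 7 dendritic-cell markers, 2 were tested in S136X and 3 in R58Q cells. All of those were called higher, beside 3.87% and 7.63% of all genes called in either direction. LAMP3, at 0.148 CPM in vector, passed the filter only through its R58Q libraries (0.685 CPM), so the filter itself favoured a rise there. CCR7, which activated B cells also express, rose by 1.05 in S136X and 1.85 in R58Q cells and CD1C by 1.37 and 1.96, while LAMP3 rose by 2.18 in R58Q cells (log2), and the summed level of the 7 markers was 27.5 to 51.1 CPM in vector, 70.1 to 90 in S136X and 111 to 167 in R58Q libraries. Most of this sum was CCR7, at means of 34.5, 71.2 and 124 CPM. Between the mutants CCR7 was 0.79 higher in R58Q cells (log2, adjusted p = 0.106), and with the block it was called (adjusted p = 1.21e-09). The calls of CD1C in S136X, CCR7 in S136X and LAMP3 in R58Q cells held in 1, 4 and 3 of the 6 fits without 1 library. CLEC9A and CLEC4C, which define dendritic-cell subsets, were at 0 counts in all 9 libraries, XCR1 had at most 1 count and FLT3 at most 3.

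Genes beside the ligands were also read, as those whose body lies within 250 kb. Of 143 such genes 46 were tested in each comparison with vector, not all of them the same genes. In S136X cells 3 were called higher and 0 lower, beside 3.87% of all genes. In R58Q cells 10 were called higher and 1 lower, beside 7.63%. Those called in S136X cells, named after their values were seen, were ARHGAP31 beside CD80 (log2 1.06), AL353152.2 beside CD83 (1.69) and AIRE beside ICOSLG (1.74). Around CD80, 1 of 8 tested neighbours was called higher in S136X and 5 of 10 in R58Q cells, among them ARHGAP31 (1.73) and PLA1A (3.60). Neighbours tested only in the R58Q comparison passed the filter through R58Q libraries, which favours a rise, so the 2 shares are not alike. Of 45 neighbours tested between the mutants, ARHGAP31 was the 1 called (0.66, adjusted p = 0.0406), beside 0.434% of all genes. Around CD274, close to PDCD1LG2, the median of 3 tested neighbours was -0.17 in S136X and -0.09 in R58Q cells (log2).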

How the data were processed

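RNA of RIVA cells (3 libraries each of vector, S136X and R58Q) was poly(A) selected, prepared with the Nugen Universal Plus mRNA-Seq kit and sequenced on an Illumina NovaSeq over several runs whose reads were combined. The submitters' processing notes name STAR, cutadapt, Picard and hg38. The counting program, its strand setting and the annotation release are not given in the sources used here, but 96.3% of the gene identifiers are in GENCODE 29. The authors deposited read counts per gene, which were used here, and a signal that equals these counts divided by 1 factor per library, which was not. The table had 0 columns without a sample and 0 rows without a gene. The median library held 32185418 counts.

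Each pair of groups was fitted on its 6 libraries with edgeR 4.0.16 (R 4.3.3, limma 3.58.1) using filterByExpr (minimum count 10, minimum total 15), TMM and its quasi-likelihood F test, with p-values adjusted over all genes tested by Benjamini-Hochberg. Adjusted p values in the text are from this fit unless another is named. Called means adjusted p under 0.05 and at least 1.5-fold. TMM factors over the 15860 genes that passed the filter on all 9 libraries gave CPM, and log2 CPM used a prior count of 2. Lengths are exon unions of GENCODE 29. Intervals from summed counts are exact and, as reads are not independent molecules, cover counting error only. A count of 0 allows up to 3 counts.

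In the labels, replicates carry the numbers 1 to 3. Deviations from the group means correlated at 0.143 to 0.626 (9 pairs of libraries with the same number) and at -0.459 to 0.169 (18 pairs with different numbers). Deviations cancel out within each group, so positive same-number values bring negative different-number values with them. Vector replicate 2 correlated at 0.143 with S136X replicate 2 and at 0.163 with R58Q replicate 2. Vector replicate 3 correlated with those libraries at 0.127 and 0.169, so the pairing of vector replicate 2 is unclear. The numbers were taken to pair the libraries, and blocked values stand beside the results of ligands and list genes whose call they change. The paper calls the replicates biologic. Nothing names separate cultures or clones, and p-values measure the spread between these libraries. Sampling noise did not account for differences within groups (chi-square 7.91 to 25.6 per degree of freedom), and each library is 1 sample.

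The 10 ligands, the gene lists, the tests and the alternatives were chosen with earlier results of these data known. Named genes are the 10 ligands, every list gene called in either mutant against vector, the 3 nearest genes of CD274, CD80, CD83 and SLAMF1, and BCL10. Alternatives tried were limma-voom and DESeq2 1.42.0, scaling by upper quartile, DESeq2 size factors or total counts, a filter of at least 10 counts per library or none, the replicate block, a joint fit of 9 libraries, protein-coding genes only, a 2-fold threshold or none, and removal of each library. The fits were also run on simulated vector and S136X counts without an effect of the replicate number. That run cannot check the replicate block. Some items are not reported here.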

Additional observations from a re-analysis of the deposited data

Results flagged for a closer look

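CD80 was the ligand called in the direct test between the mutants. Its log2 level was 1.22 higher in R58Q than in S136X cells (edgeR, adjusted p = 0.0138, higher in 3 of 3 same-number pairs). The call was lost without R58Q replicate 3 (adjusted p = 0.0638), S136X replicate 2 (0.0569) or S136X replicate 3 (0.122). With the replicate block, CD86, CD83, SLAMF7 and CD274 also had adjusted p values under 0.05 (5.14e-06, 7.37e-05, 5.14e-06 and 0.0053), at less than 1.5-fold. All R58Q libraries carry a later date than all S136X libraries, and the part of the date in this difference cannot be told apart.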

How the results depend on the processing

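Of 113 log2 fold changes of the 6 tested ligands per comparison under the alternatives (LGALS9 gave none with at least 10 counts in every library), 107, 98 and 106 kept their direction and side of the threshold (S136X, R58Q, between the mutants). The counts of ligands called against vector moved by more than 1.5 times under 1 alternative, 2 of 6 tested for S136X at 2-fold. Over all tested genes, S136X against vector gave 601 calls, and 243 at 2-fold, 934 with no filter, 1574 with no fold threshold, 1014 with the replicate block and 279 to 705 with 1 library left out. R58Q against vector gave 1178 calls, and 526 at 2-fold, 3243 with no fold threshold and 719 to 1248 with 1 library left out. R58Q against S136X gave 66 calls, and 148 with DESeq2, 114 with all 9 libraries in one fit, 39 at 2-fold, 165 with no filter, 33 with protein-coding genes only, 446 with the replicate block, 30 without replicate 1 of any group and 5 to 63 with 1 library left out. For the lists, S136X against vector gave 5 calls, and 2 at 2-fold, 8 with no filter, 8 with the replicate block and 3 to 8 with 1 library left out, and R58Q against S136X gave 1, and 3 with DESeq2, 0 at 2-fold, 3 with no filter, 3 with the block and 0 to 3 with 1 left out. With 1 library left out, 4 ligands were called for S136X in every fit, 4 to 6 for R58Q and 0 to 2 between the mutants. LGALS9 between the mutants ranged from -1.17 to 1.28 with 1 library left out, turning from -0.05 to 0.50 without R58Q replicate 1, 0.05 without R58Q replicate 3 and 1.28 without S136X replicate 2. With no filter LGALS9 was called in S136X (adjusted p = 0.00949) and R58Q cells (0.0319), and without R58Q replicate 1 in R58Q cells (0.0481). The call of CD274 in R58Q cells was lost with limma-voom (adjusted p = 0.0591), all 9 libraries in one fit (0.0616), protein-coding genes only (0.0552), total counts only (0.0627) and upper-quartile scaling (0.0579). The cause was not tested. The replicate block changed no other call of a ligand than those of CD274 in S136X cells and LGALS9 in both. At 28047713 or more counts per library, SLAMF1, PDCD1LG2, ICOSLG and CD200 were removed by the filter.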
